A study of Homo sapiens with 3 samples.

Results

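The ZNF genes encode the largest group of human DNA-binding proteins, most of them carrying tandem C2H2 zinc fingers. They were examined here in RWPE1, an established line of benign prostate epithelial cells. Members were all probes whose platform gene symbol was ZNF followed by a digit and whose detection value exceeded 0.99 on the vector or the MYC array. This selected 228 of the 24526 probes on the array, standing for 211 of the 423 ZNF genes and 228 of the 506 ZNF probes. The array named 16922 genes in all. Retroviral infection had given the cells the empty vector PMN, MYC for overexpression, or the constitutively active PI3K mutant E545K. None of the 3 cultures received a further treatment before harvest, and RNA from each was read on 1 Illumina expression array. With 1 array per group there is no replicate error, so every difference below compares single arrays and carries no p-value. In RNA from whole cultures, fewer cells of a type and less RNA per cell cannot be told apart.

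In a classical C2H2 protein each finger contacts a few bases of DNA, and a row of fingers reads a longer site. Many ZNF proteins also carry a KRAB domain, which recruits the corepressor TRIM28 and through it the histone methyltransferase SETDB1, HP1 proteins and deacetylases. The resulting heterochromatin silences transposable elements and, at some loci, ZNF genes themselves. Many of these genes arose by tandem duplication and lie in clusters, above all on chromosome 19. Because the copies resemble each other, a probe may also read transcripts of a close paralog. Other ZNF proteins have no KRAB domain and act in transcription activation, RNA handling, ribosome assembly or mitosis.

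Levels are given as array signals on the scale of the vector array, and differences as log2 differences of the deposited normalised values. A probe was called above background where its detection value exceeded 0.99. No detection value was mapped to the PI3K array, so the lowest scaled signal that passed on the MYC array, 283.7, served as a substitute limit there. The corresponding lowest signal on the vector array was 233.3. Of all probes, 9700 were above background on the vector array, 9097 on the MYC array and 9107 on the PI3K array by the substitute limit. Different probes for 1 gene gave differences that scattered with an SD of 0.20 for MYC against vector and 0.21 for PI3K against vector, over 676 genes. This is a measure of probe error within these arrays, not of variation between cultures.

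The check of the introduced gene went against its label. The MYC probe read 6229 on vector, 5229 on the array labelled MYC and 3520 on PI3K. It was thus 0.25 lower on the log2 scale on the array labelled MYC than on the vector array. Whether this probe lies in the introduced coding sequence was not tested, and no probe was named for PIK3CA. Of 7 epithelial markers 6 were on the array. The basal keratin KRT5 read 17323 on vector, 5473 on the array labelled MYC and 11735 on PI3K, and KRT14 read 23640, 5975 and 13094. KRT8 read 2409, 1288 and 2245, and the adhesion molecule CDH1 read 3534, 2595 and 2872. These 4 were lower on the array labelled MYC than on vector. EPCAM, at 518, 1061 and 896, was higher, and KRT18 read 148, 302 and 146 and was above background on the array labelled MYC alone. Of the markers of other cells, PTPRC, PECAM1 and COL1A1 were not above background on the vector or MYC array, while VIM read 12491, 19080 and 13327 and was higher on the array labelled MYC. Genes of other programmes differed between the arrays as well. The interferon-induced GTPase MX1 read 26602, 269 and 3890 on the vector, MYC and PI3K arrays, where the value on MYC was not above background. The part of these genes and of the markers in the ZNF differences was not tested.

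The members were dim. Their median signal on the vector array was 431, against 770 for all probes above background on the vector or the MYC array. Of the 506 ZNF probes, 157 were above background on both of these arrays, 67 on the vector array only, 4 on the MYC array only and 278 on neither. Of these 278, 2 passed the PI3K limit and are not members. The 67 and the 4 entered through 1 array alone, so their selection favours a difference in that direction. Counts are therefore also given for the 157 alone. Just inside the threshold lay a probe of ZNF580 with a signal of 184 on the vector array and 285 scaled on the MYC array. Probes of ZNF467 and ZNF274, at 234.1 and 234.4 on the vector array, were the next closest inside. Just outside lay ZNF334, ZNF215 and ZNF304, with 228.6, 230.4 and 232.5 on the vector array.

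The array labelled MYC was compared with the vector array to ask how MYC changes expression in these cells. ZNF probes lay lower on the array labelled MYC. Their median difference was -0.21, while that of all 10087 probes above background was 0.08. With dim values set to their limits the ZNF median was -0.10. At least 2-fold lower were 12 of the 228, or 5.26%, a share near the background of 4.68%. None was at least 2-fold higher (background 2.38%). At least 1.5-fold lower were 39 members, or 17.1% (background 10.2%), and 6 members were at least 1.5-fold higher (background 11.5%). For the 157 members that passed on both arrays the median was -0.11, against 0.10 for all 8710 such probes. Of these 157, 6 were at least 2-fold lower (background 2.64%) and none at least 2-fold higher (background 1.89%). A difference of 1.5-fold or more downward was seen in 18 (background 7.3%) and upward in 5 (background 10.4%). When PI3K had to pass its limit as well, 140 members were left, with 6 at least 2-fold lower (background 2.77%) and none at least 2-fold higher (background 1.72%). Of these, 18 were down by 1.5-fold or more (background 7.73%) and 4 up (background 9.77%).

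The level of a probe moved with its difference. Probes with detection values under 0.95 on both arrays, which were not called detected, had a median difference of 0.31 over all genes and 0.24 over the ZNF family. Dim probes thus lay above 0 on this scale, and the part of this shift in the counts was not tested. Among probes above background on both arrays with a vector signal over 1000, the 44 ZNF probes had a median difference of -0.30 and all 4168 probes one of 0.04. Between 500 and 1000 the medians were -0.20 for 47 ZNF probes and 0.06 for all probes. Between 300 and 500 they were -0.07 for 50 ZNF probes and 0.15 for all probes. Under 300, the 16 ZNF probes had a median of 0.32 and all probes one of 0.37. The ZNF median lay below that of all probes in each of the 4 ranges of signal. In the range under 300 the MYC limit of 283.7 leaves little room for a lower value on MYC. For PI3K against vector the same probes had the ZNF median lower in the ranges over 300. Under 300 it was higher, at 0.36 against 0.27 for all probes.

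**Figure D1:**
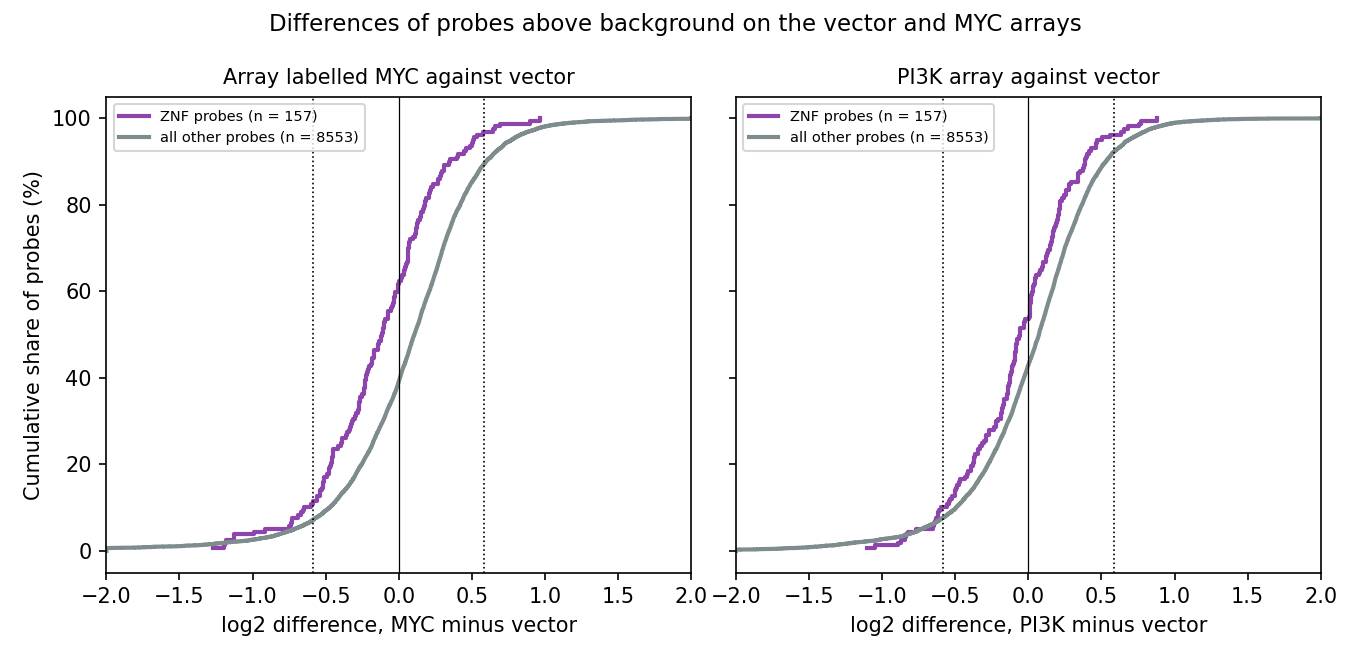
Cumulative share of probes (vertical axis, percent) by log2 difference (horizontal axis) for probes above background on the vector and MYC arrays, with differences beyond 2 in either direction drawn at the edge. In both panels the curve of the 157 ZNF probes lies to the left of all other probes over most of its course, and dotted lines mark 1.5-fold.

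Among the lowest ZNF genes on the array labelled MYC, ZNF256, ZNF773, ZNF274 and ZNF264 lie near each other on the long arm of chromosome 19. Their promoters are printed because each holds an ETS core, and they were chosen for it. Each sequence runs from 250 bases before to 50 bases after the RefSeq gene start on GRCh38.p14, and capitals mark CCGGAAG read on either strand. The ZNF256 window is chr19:57947657-57947956 on the minus strand, and its capitals are a palindrome in which the motif on 1 strand overlaps the motif on the other. The ZNF773 window is chr19:57499688-57499987 on the plus strand, that of ZNF274 is chr19:58182811-58183110 on the plus strand, and that of ZNF264 is chr19:57191250-57191549 on the plus strand.
ZNF256: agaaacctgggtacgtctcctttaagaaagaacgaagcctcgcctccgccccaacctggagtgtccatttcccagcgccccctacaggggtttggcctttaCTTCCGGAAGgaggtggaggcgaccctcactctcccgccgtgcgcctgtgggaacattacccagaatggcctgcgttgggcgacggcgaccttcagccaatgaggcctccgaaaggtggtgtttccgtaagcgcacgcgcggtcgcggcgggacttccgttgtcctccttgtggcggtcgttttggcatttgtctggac
ZNF773: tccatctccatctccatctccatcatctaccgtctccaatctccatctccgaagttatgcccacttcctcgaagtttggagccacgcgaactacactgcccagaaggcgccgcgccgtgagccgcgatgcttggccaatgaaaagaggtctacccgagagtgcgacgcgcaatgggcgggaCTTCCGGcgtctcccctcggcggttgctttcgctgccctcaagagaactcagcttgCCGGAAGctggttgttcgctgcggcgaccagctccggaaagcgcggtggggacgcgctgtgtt
ZNF274: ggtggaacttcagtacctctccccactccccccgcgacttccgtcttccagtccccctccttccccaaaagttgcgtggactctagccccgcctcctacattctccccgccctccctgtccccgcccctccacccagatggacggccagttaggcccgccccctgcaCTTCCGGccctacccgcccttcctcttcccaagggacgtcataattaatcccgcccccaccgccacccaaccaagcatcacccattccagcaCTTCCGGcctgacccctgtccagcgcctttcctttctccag
ZNF264: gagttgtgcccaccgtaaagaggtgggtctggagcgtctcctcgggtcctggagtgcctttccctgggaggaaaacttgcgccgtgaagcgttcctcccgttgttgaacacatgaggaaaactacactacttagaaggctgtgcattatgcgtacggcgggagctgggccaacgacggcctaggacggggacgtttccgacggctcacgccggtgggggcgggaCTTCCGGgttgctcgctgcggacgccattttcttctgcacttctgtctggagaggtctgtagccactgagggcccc

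The ETS core CCGGAAG was found in 71 of the 182 member genes with a RefSeq promoter, or 39.0%. Over all 27305 promoters of the same length the share was 10.7%, and over the 6852 genes with a probe above background and a promoter it was 20.6%. The median number of CpG pairs was 22 in member promoters and 27 in those of all genes above background. The E-box CACGTG, the core bound by MYC with MAX, occurred in 11 member promoters, or 6.04%, against 11.02% of genes above background and 7.43% of all promoters. The forkhead core TGTTTAC occurred in 1 member promoter, or 0.549%, against 2.34% of genes above background and 3.41% of all promoters. Both strands were searched for each motif. Member genes with the ETS core had a median difference of -0.23 on the array labelled MYC against vector, and those without it -0.22. A match describes letters in the window only.

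ZNF274 had the lowest log2 difference among probes above background on both arrays. This KRAB protein binds the ends of other ZNF genes and recruits SETDB1 to them. Its brightest probe read 1574 on vector, 652 on the array labelled MYC and 861 on PI3K, a difference of -1.27 for MYC against vector. The vector array was the high one. Its other member probes disagreed in size: a dimmer one read 445, 261 and 303, and the dimmest read 234, 249 and 242, with no difference beyond probe error. Only the brightest of the 3 was above background on the array labelled MYC.

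The next genes in this order also had the vector array highest and the array labelled MYC lowest. ZNF773 read 1061, 462 and 680 on the vector, MYC and PI3K arrays, 2.29-fold lower on the array labelled MYC than on vector. ZNF17 read 845, 371 and 497, 2.28-fold lower, and ZNF264 read 715, 327 and 399, 2.18-fold lower. ZNF613 differed from these in that the array labelled MYC and the PI3K array were close to each other, at 330 and 349, against 748 on vector. ZNF329 read 998, 501 and 635. ZNF189 read 1060, 636 and 867, and a second ZNF189 probe was not above background on the vector or MYC array. In all of them the PI3K array lay between the other arrays.

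ZNF462, which lies outside chromosome 19 and acts in chromatin regulation during development, was among the brighter members. It read 2357 on vector, 1076 on the array labelled MYC and 1799 on PI3K, 2.19-fold lower on MYC than on vector. The PI3K array lay between the other arrays. ZNF395, a transcription factor induced by hypoxia, read 1227, 651 and 663, so that both oncogene arrays were at about the same low level. ZNF428, on chromosome 19, read 3054, 1815 and 1475, with the PI3K array lowest.

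Some members were above background on the vector array and not on the array labelled MYC, so their folds are lower bounds against the limit of 283.7. ZNF256, which has a KRAB domain, was at least 2.86-fold lower: it read 811 on vector, 237 on MYC and 455 on PI3K. ZNF134 was at least 1.79-fold lower, from 509 on vector to 238 on MYC. ZNF331, an imprinted KRAB gene, was at least 1.74-fold lower, from 492 to 194, with 351 on PI3K.

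In ZNF415 the PI3K array did not follow the array labelled MYC. It read 506 on vector, 152 on MYC and 660 on PI3K. The array labelled MYC was at least 1.78-fold below vector and at least 2.33-fold below PI3K. PI3K was itself 1.31-fold above vector. Other members also had only the array labelled MYC low. ZNF362 read 487, 271 and 560 on the vector, MYC and PI3K arrays, and ZNF83 read 463, 271 and 461. Neither was above background on the array labelled MYC.

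The 6 probes that exceeded vector by 1.5-fold or more on the array labelled MYC, as deposited, were the 3 of ZNF280D, those of ZNF74 and ZNF354A, and the dim probe of ZNF580. The ZNF580 probe entered through the MYC array alone, so its selection favours a higher value there, and its bound was only 1.22-fold. ZNF280D, a relative of the Drosophila suppressor of hairy wing protein, was the leading one, and its 3 probes gave the same direction. They read 353, 644 and 239 on vector, 689, 1201 and 385 on the array labelled MYC, and 601, 915 and 313 on PI3K. The differences for MYC against vector were 0.97, 0.90 and 0.69, and every probe had vector lowest, PI3K in between and MYC highest. ZNF74, a gene of the region deleted in DiGeorge syndrome, read 400, 631 and 324, and was high on the array labelled MYC alone. ZNF354A, a KRAB repressor, read 295, 462 and 378. Short of 1.5-fold on MYC were ZNF511, ZNF692 and ZNF839. ZNF511 read 1391, 2074 and 2229, with both oncogene arrays above vector. ZNF692 read 436, 621 and 585, and ZNF839 read 563, 798 and 651.

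**Figure D2:**
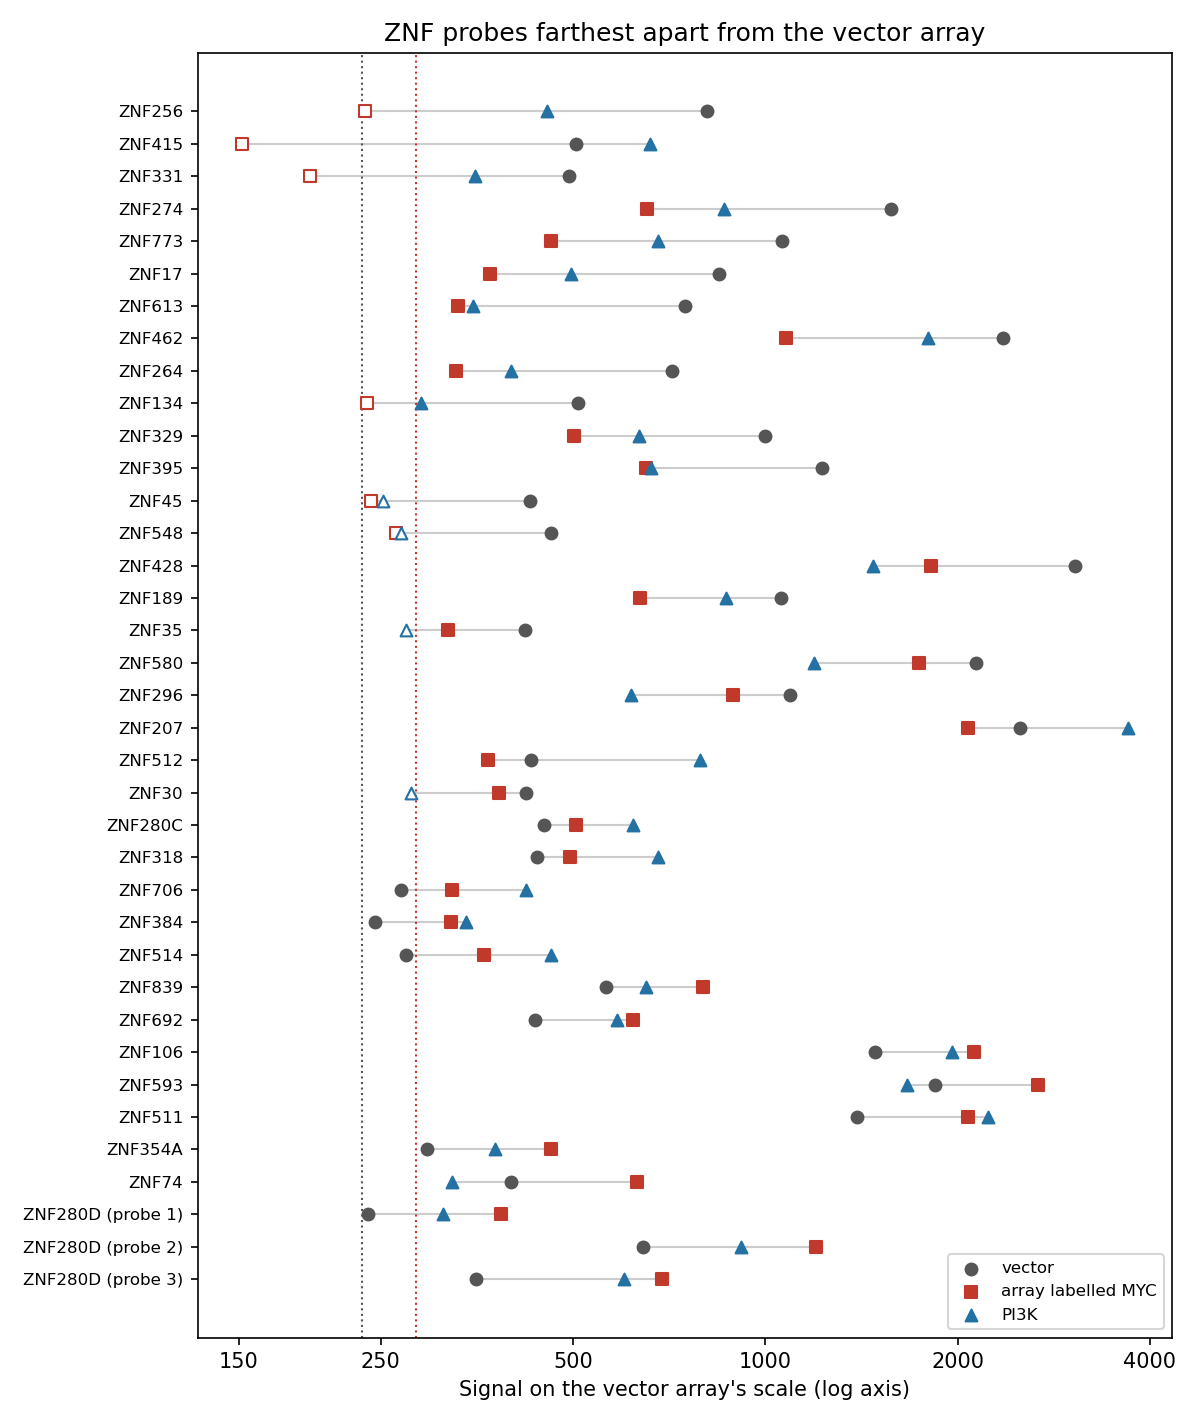
Signal on the vector array's scale (log axis) of the members farthest from the vector array in each direction, 1 row per probe, ordered by MYC minus vector. Filled symbols are above background, open symbols are not, dotted lines mark the limits of 233.3 (vector) and 283.7 (MYC and the PI3K substitute), and the MYC square is at the far left in most of the upper rows.

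Several member probes were present for 15 genes, and their probes were close in some genes and apart in others. ZNF226 read 342 and 309 on vector, 232 and 221 on MYC, and 216 and 229 on PI3K by its 2 probes. In ZNF585A the probes parted on MYC, one at 404, 221 and 233 on the vector, MYC and PI3K arrays and the other at 466, 451 and 317. In ZNF32 they had opposite signs, one at 261, 302 and 292 and the other at 563, 437 and 522.

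The PI3K array was compared with the vector array, which also serves as the control for MYC, so the 2 sets of differences share its error. The ZNF median lay below vector as deposited. The median was -0.11 against 0.06 for all probes above background. With dim values set to their limits this median was -0.00022, so that it no longer lay below vector. At least 2-fold lower were 4 members, or 1.75%, a share below the background of 3.91%. None was at least 2-fold higher (background 1.15%). At least 1.5-fold lower were 30 members, or 13.2% (background 9.45%), and 7 were at least 1.5-fold higher (background 8.05%). Among the 157 above background on the vector and MYC arrays the median was -0.06, against 0.07 for all such probes. Of these, 2, or 1.27%, were at least 2-fold lower (background 2.71%) and none at least 2-fold higher (background 1.06%). A difference of 1.5-fold or more downward was seen in 16 (background 7.72%) and upward in 6 (background 7.68%). For the 140 members that passed on all 3 arrays, 2 were at least 2-fold lower (background 2.46%) and none at least 2-fold higher (background 1.04%). Of these, 14 were down by 1.5-fold or more (background 7.19%) and 4 up (background 7.56%).

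ZNF613 and ZNF428 were the members above background on both arrays with at least 2-fold lower signal on PI3K, 2.15-fold and 2.07-fold lower than vector. ZNF580 differed between its probes. The bright one read 2141 on vector, 1740 on MYC and 1190 on PI3K, and was 1.80-fold lower on PI3K. The dim one read 184, 285 and 277, above background on the array labelled MYC only. ZNF296, known from pluripotent cells, read 1092, 891 and 617 and was lowest on PI3K. The other members with a 2-fold lower value, ZNF502 at 358, 247 and 162 and ZNF285 at 406, 215 and 185, were below the limit on MYC and PI3K and have bounds of 1.26-fold and 1.43-fold. ZNF548 and ZNF45 were at least 1.63-fold and at least 1.51-fold lower on PI3K than on vector.

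The members highest on PI3K against vector follow. ZNF512 read 429 on vector, 368 on MYC and 790 on PI3K, 1.84-fold higher on PI3K. Only the PI3K array was high. ZNF207, which encodes the kinetochore protein BuGZ that stabilises BUB3, had 2 probes. They read 2506 and 2179 on vector, 2077 and 1885 on MYC, and 3694 and 3002 on PI3K. Both put PI3K highest and MYC lowest, and PI3K was 1.47-fold and 1.38-fold above vector. ZNF318 read 439, 494 and 679. ZNF514 read 273, 363 and 463 and is dim on vector, and the part of the upward shift of dim probes in this value was not tested.

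The array labelled MYC and the PI3K array were also compared directly. The median ZNF difference was -0.07, against 0.01 for all probes. At least 2-fold lower on MYC were 3 members (background 2.36%), and none was at least 2-fold higher (background 2.21%). At least 1.5-fold lower were 16 (background 7.72%) and at least 1.5-fold higher 5 (background 8.95%). For the 157 probes, 1 was at least 2-fold lower (background 1.78%) and none higher (background 2.28%), while 9 were at least 1.5-fold lower (background 6.62%) and 4 higher (background 9.37%). For the 140 probes, 1 was at least 2-fold lower (background 1.92%) and none higher (background 1.74%), while 9 were at least 1.5-fold lower (background 7.09%) and 4 higher (background 8.47%). These shares lay near or below the background. ZNF512 was 2.15-fold lower on MYC than on PI3K, and ZNF207 1.78-fold and 1.59-fold lower by its 2 probes. ZNF219, a transcription factor, read 733 on MYC and 1269 on PI3K. ZNF165, known as a cancer and testis antigen, read 589 and 1017. ZNF362 was at least 1.97-fold lower on MYC. Higher on MYC were ZNF74, 1.95-fold, ZNF593, 1.60-fold, ZNF621, 1.58-fold, and ZNF770, 1.504-fold.

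The low values on the array labelled MYC were unevenly spread over the genome. Chromosome 19 held 101 of the 228 member probes. Of these 101, 11 lay 2-fold or more below vector (background 4.68%) and 30 lay 1.5-fold or more below it (background 10.2%). Of the 127 members on other chromosomes, 1 and 9 did. These counts include members that entered through the vector array alone, whose selection favours a lower value on MYC. The median difference for MYC against vector was -0.40 on chromosome 19 and -0.03 for the 127 members on other chromosomes. Among members above background on both arrays the medians were -0.31 for 52 probes and 0.00 for 105. Of the 52, 5 were at least 2-fold lower (background 2.64%) and 11 at least 1.5-fold lower (background 7.3%). Of the 105, 1 and 7 were. The 588 other probes above background on chromosome 19 had a median of 0.07, and 82 of them were at least 1.5-fold lower (background 10.2%). For PI3K against vector the chromosome 19 members had a median of -0.21, and the members elsewhere one of -0.03. Single chromosomes differed from these pooled values. The 4 members on chromosome 3 had medians of -0.47 for MYC and -0.63 for PI3K, and the 8 on chromosome 9 had -0.41 and -0.31. In the other direction, the 13 on chromosome 10 had 0.21 and 0.15, and the 6 on chromosome 15 had 0.60 and 0.40. The other probes on chromosome 19 did not have the low median of the ZNF probes.

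Member genes on chromosome 19 were split into runs wherever neighbouring members lay more than 1 Mb apart in RefSeq. The run nearest the end of the long arm was singled out after its values were seen, so it is described without a test. It goes from ZNF264 to ZNF446 and holds 24 genes with 27 member probes. Their median difference was -0.66 for MYC against vector and -0.42 for PI3K against vector, against -0.17 and -0.08 for the 201 other members. For MYC, 25 of the 27 lay below 0, against 42.5% of all probes above background. Of the 27, 14 were 1.5-fold or more below vector (background 10.2%), 8 of them by 2-fold or more (background 4.68%). For PI3K, 25 lay below 0, against 44.3% of all probes, and 9 were at least 1.5-fold lower (background 9.45%). All 11 probes of the run that were above background on the vector and MYC arrays lay below 0 for MYC, with a median of -0.66. Of these 11, 6 were at least 1.5-fold lower on MYC (background 7.3%), 4 of them by 2-fold or more (background 2.64%). On PI3K 5 of the 11 were at least 1.5-fold lower (background 7.72%). The other 16 entered through the vector array alone, so their selection favours a value below vector, and the counts over the 27 include them. With dim values set to their limits the median of the 27 was -0.41 for MYC and -0.25 for PI3K.

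**Figure D3:**
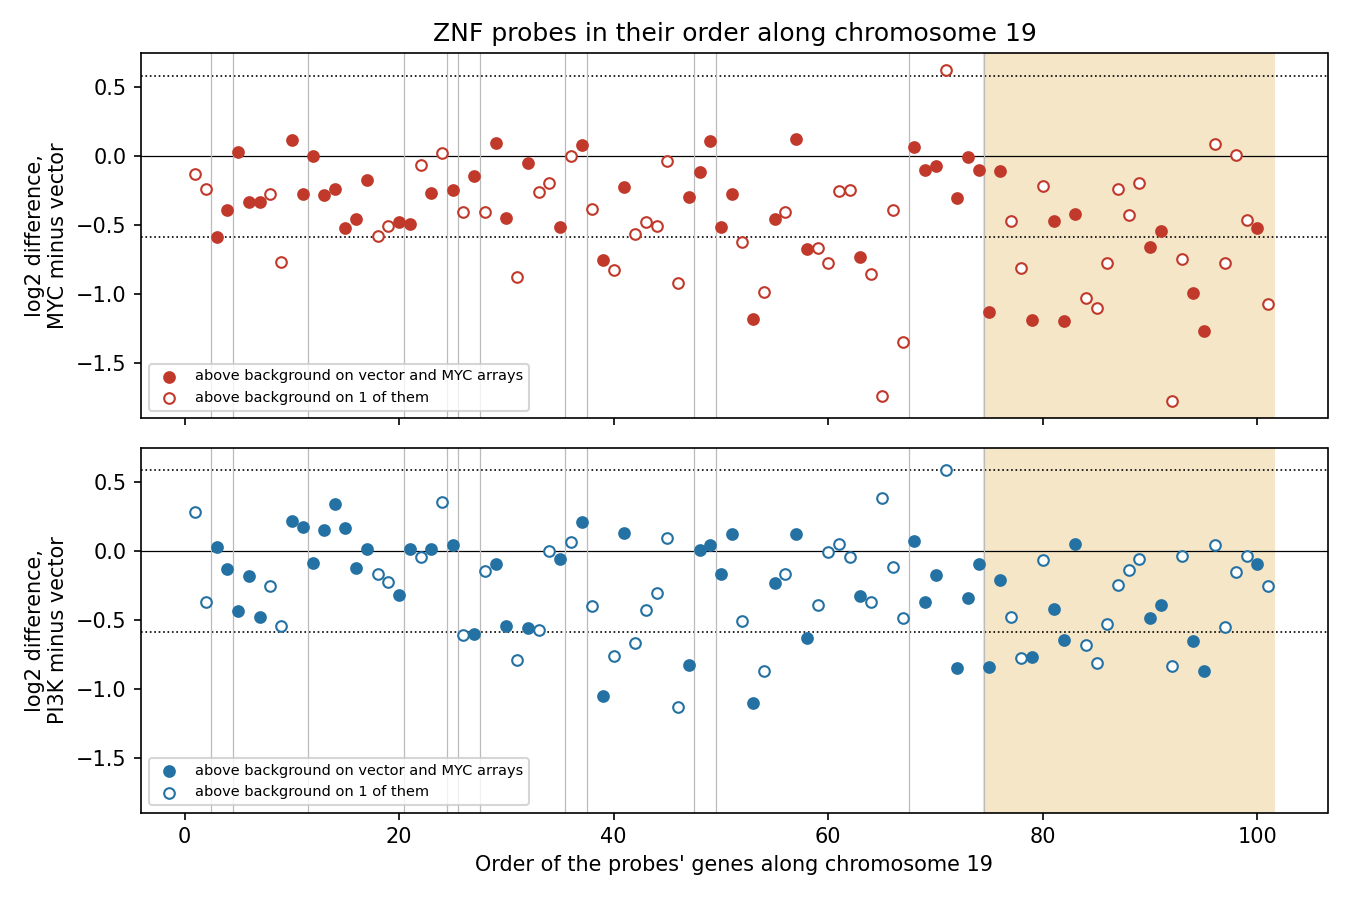
Log2 difference from vector (vertical axes) of the 101 member probes in the order of their genes along chromosome 19 (horizontal axis), for MYC above and PI3K below. Grey lines separate the runs, dotted lines mark 1.5-fold, and 25 of the 27 probes in the shaded last run lie below 0 in each panel. Open symbols are above background on 1 of the vector and MYC arrays only, and their selection favours a difference in that direction.

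Genes of the run differed in size. ZNF549, the brightest member, read 12501 on vector, 9378 on MYC and 12969 on PI3K, so that PI3K was level with vector. ZNF805 read 432, 403 and 373. ZNF586 had 2 probes that read 869 and 533 on vector, 551 and 366 on MYC, and 620 and 406 on PI3K, in the same order, and its brighter probe was 1.57-fold lower on MYC. ZNF419 read 720, 519 and 537, and like ZNF549 and ZNF805 it was less than 1.5-fold from vector. A further 15 ZNF probes in the run were not above background.

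The genes between and beyond these members were looked at in the same way. TRAPPC2B, within the run, read 811, 428 and 508. ZSCAN18, a SCAN domain zinc finger gene within the run, read 1447 on vector, 247 on MYC and 816 on PI3K, and was at least 5.10-fold lower on MYC. ZIK1, also within the run, read 282, 121 and 206 and was above background on vector only, with no bound on its fold. Beyond the run toward the chromosome end, TRIM28 read 1936, 2565 and 2517 and the fatty acid transporter SLC27A5 read 578, 1193 and 749. Both were higher on the oncogene arrays than on vector. The other 5 probes above background there were lower on the array labelled MYC. MZF1, a zinc finger gene, read 1543, 1244 and 1041, and ZBTB45 read 381, 298 and 407. The 3 probes of CHMP2A had differences of -0.25, -0.43 and -0.21 for MYC and -0.01, -0.24 and -0.62 for PI3K.

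Of the other runs on chromosome 19, the one from ZNF175 to ZNF331 had a low median for MYC, -0.64 over 18 probes, and a smaller one for PI3K, -0.20. Only 7 of the 18 were above background on the vector and MYC arrays, with medians of -0.51 for MYC and -0.23 for PI3K. The run from ZNF576 to ZNF296 had medians of -0.49 and -0.55 over 10 probes, and its 18 other probes above background had medians of -0.51 and -0.30. Only 3 of the 10 were above background on the vector and MYC arrays, with medians of -0.29 and -0.82. In both runs the remaining members entered through the vector array alone, so their selection favours a value below vector. The run from ZNF579 to ZNF444, next to the last, had medians of -0.07 and -0.18 over 7 probes. In promoters of the last run the ETS core occurred in 18 of 23 genes, or 78.3%. These genes are related by duplication, so their promoters are not independent. ZNF17, one of the lowest genes, was among those without the core.

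Members were then grouped by what their proteins do. The group of KRAB repressors with known targets had 19 genes above background with 22 probes. Their median difference was -0.25 for MYC and -0.20 for PI3K, against 0.08 and 0.06 for all probes. On MYC 7 of the 22 were at least 1.5-fold lower (background 10.2%), and on PI3K 2 were (background 9.45%), a share near the background. Among those 7, the probes of ZNF331, ZNF45, ZNF160 and ZNF649 and a dimmer probe of ZNF274 entered through the vector array alone. Their selection favours a lower value on MYC, so the count of 7 is not free of it. ZNF91, a repressor of SVA and LINE-1 retroelements, read 587, 497 and 606. ZNF746, which encodes PARIS, a repressor of PPARGC1A, read 519, 416 and 369. ZNF430 was among the brightest, at 10244, 8521 and 10343. These 3 genes differed from vector by less than 1.5-fold.

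The proteins that KRAB repressors recruit were level with vector or above it for the most part. The list of KRAB corepressor machinery, which has no ZNF member, had 17 genes above background with 19 probes. Their median difference was 0.15 for MYC and 0.36 for PI3K, and none was at least 1.5-fold lower on either array. TRIM28 is given above. SETDB1, the methyltransferase TRIM28 recruits, read 552, 612 and 571. CHD4, the remodeller of the NuRD complex, read 1475, 1831 and 2430 and was highest on PI3K. CBX5, an HP1 protein, read 1073, 814 and 797, and MORC2, an ATPase of HUSH silencing, read 438, 321 and 337. CBX5 and MORC2 were lower on both oncogene arrays, each by less than 1.5-fold.

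The group of RNA processing, translation and ribosome assembly had medians above vector on both arrays, as had all probes above background, at 0.08 and 0.06. Over 13 genes and 16 probes its median was 0.29 for MYC and 0.28 for PI3K, but this list also holds ZRANB2, ZPR1 and CNBP, which have no ZNF symbol on the array. The 12 probes of its 10 ZNF members had medians of 0.14 and 0.28. None was at least 1.5-fold from vector on MYC (background 10.2% lower and 11.5% higher). The 2 of the 12 that lay below 0 on MYC were the probes of ZNF207, at -0.27 and -0.21. On PI3K 1 was at least 1.5-fold higher (background 8.05%), ZNF706, at 269, 324 and 423. ZNF593, whose yeast relative acts in assembly of the large ribosomal subunit, read 1846, 2673 and 1667, and only the array labelled MYC was high. ZNF622, the human relative of the yeast ribosome factor Rei1, read 2528, 2585 and 1790, and only the PI3K array was low. ZNF598, the ligase that marks collided ribosomes, read 2341, 2904 and 2403. ZNF330, a nucleolar protein, read 588, 808 and 718. ZNF106, an RNA-binding protein, read 1487, 2124 and 1963. Values for these 3 genes were highest on the array labelled MYC.

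**Figure D4:**
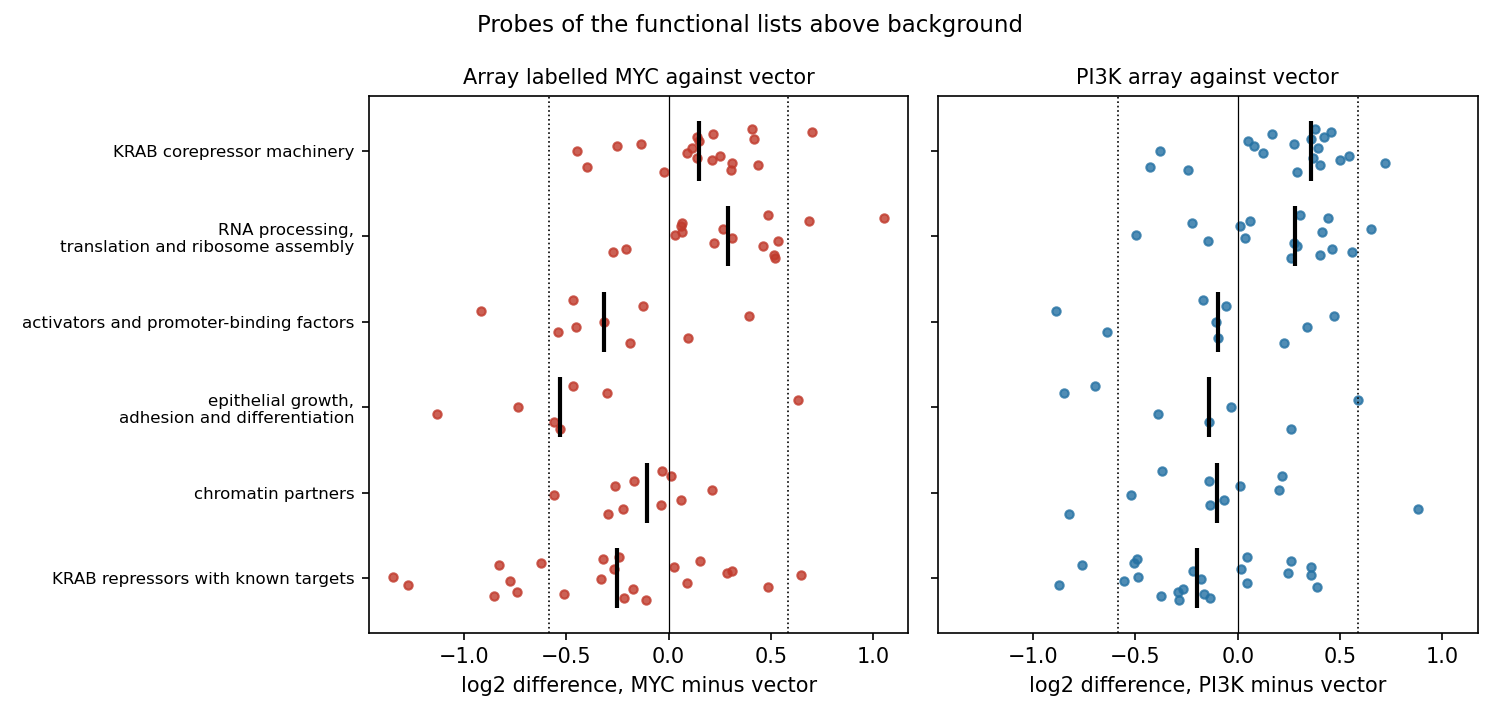
Log2 difference from vector (horizontal axes) of each probe above background in the 6 functional groups, with black bars at the medians and dotted lines at 1.5-fold. The medians of the corepressor and RNA processing groups lie above 0 in both panels and those of the other 4 groups below 0.

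The activators and promoter-binding factors had 9 probes with a median of -0.32 for MYC and -0.10 for PI3K. ZNF143, which binds promoters of small nuclear RNA genes, read 419, 369 and 491. ZNF148, or ZBP-89, read 1679, 1154 and 1080 and was lower on both oncogene arrays. ZNF652, a partner of the corepressor CBFA2T3, read 3980, 2879 and 3539. ZNF146, a protein made almost wholly of fingers, read 4201, 4486 and 3932, close to level. ZNF384 read 245, 323 and 340, near the limit.

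Among genes of epithelial growth and differentiation, 7 probes had a median of -0.53 for MYC and -0.14 for PI3K. ZNF217, amplified in breast cancer, read 1082, 735 and 982. ZNF503, a developmental corepressor, read 894, 538 and 875. For both genes only the array labelled MYC was low. ZNF750, a factor of epidermal differentiation, was dim at 267, 193 and 165 and was above background on vector only. The epithelial markers given above moved both ways on the same array, KRT5, KRT14, KRT8 and CDH1 downward and EPCAM and KRT18 upward, and their part in these values was not tested. The chromatin partners had 10 probes with a median of -0.10 on each array. ZNF518B, a partner of the methyltransferase G9a, read 1070, 726 and 745, while the brighter probe of ZNF644, another G9a partner, read 1219, 1229 and 1418.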

How the data were processed

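RNA of 3 RWPE1 cultures was read on Illumina arrays, 1 per group. The authors deposited non-normalised probe intensity and a detection value per probe (a fraction), per the file headers, and a table of normalised log2 values. Per the submitters' processing notes the tool was GenomeStudio, with a version not given in the sources read. For MYC against vector the deposited log2 difference equalled the log2 intensity ratio plus 0.517, which matches the ratio of the 75th percentiles (563.5 and 393.8). The deposited columns are centred per probe on a baseline that stays unknown, with medians of -0.16, 0.07 and 0.04 for vector, MYC and PI3K, so only differences were used. That PI3K shares this baseline was assumed. Scaled signals are the vector signal times 2 to the power of the difference from vector. In the non-normalised table, 2 columns of per-sample values matched no sample's labels and were not used. Detection values rose with signal, so high values were taken as above background. Bounds replaced a dim value by the higher of itself and the limit.

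Differences, counts and medians were computed in Python 3.11.15 with pandas 2.3.3. As an alternative, limma 3.58.1 in R 4.3.3 applied normexp with offset 50 and quantile normalisation. The vector and PI3K signals entered it on the vector scale and the MYC signals unscaled. In other alternatives differences were centred on all probes above background, dim probes were set to bounds, and probes of a gene were averaged. The code was tested on simulated data. Members and lists were chosen with earlier results of these data known. Named genes are the 10 highest and 10 lowest probes above background on both arrays of each comparison, the 4 largest bounds each way, list members, genes with several probes and probes nearest the threshold. Genes of the last run on chromosome 19, its neighbours and the printed promoters were chosen after their values were seen. Genes were matched to RefSeq by gene ID, and order along chromosomes was taken from its annotation. Planned protein features, such as finger number, were not analysed here. The number of arrays limits the precision.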

Additional observations from a re-analysis of the deposited data

How the results depend on the processing

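No paired analysis was possible because each group has 1 array and no result comes from a test; leaving out a replicate was likewise not possible. Of 108 values of counts and medians under alternatives, 2 reversed and 22 moved, counts by over 1.5 times or medians beyond probe error; the other 84 did neither. Medians within that margin still shrank: with dim probes at their bound the ZNF median was -0.10 for MYC and -0.00022 for PI3K against vector. Without a detection filter the ZNF median became 0.047 for MYC against vector and 0.093 for PI3K against vector, with 15 probes at least 1.5-fold higher on MYC; the dim probes then included have medians above 0. For MYC against vector, probes above background on both arrays gave 6 at least 2-fold and 18 at least 1.5-fold lower. Requiring all 3 arrays to pass, chosen after seeing the data, also gave 6 and 18. Dim probes at their bound gave 7 at least 2-fold lower. Centring on all probes left 3 at least 1.5-fold higher, as did the brightest probe or the mean per gene. For PI3K against vector, the same 157 probes gave 2 and 16 lower, all 3 arrays 2 and 14 with 4 higher, and bounds 2 and 18; per gene, 4 were higher. For MYC against PI3K, the 157 probes and the 3-array rule each gave 1 at least 2-fold and 9 at least 1.5-fold lower. Fewer probes remain under the stricter filters by construction. Breaking runs only at 2 Mb, also chosen after seeing the data, extended the last run of chromosome 19 to 34 probes from ZNF579, with medians of -0.47 for MYC and -0.36 for PI3K. Most members lie near the detection limit, and 1 array per group leaves variation between cultures unknown.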

Other observations

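Zinc finger genes outside the ZNF symbols did not share 1 direction. The 24 probes with ZBTB symbols had a median difference of 0.01 for MYC against vector and 0.07 for PI3K against vector. Most proteins of that name pair fingers with a BTB domain, but the symbol match also took in ZBTB8OS, which does not. Within that family ZBTB16, or PLZF, had its brighter probe at 609 on vector, 135 on the array labelled MYC and 246 on PI3K, at least 2.14-fold lower on each. The 11 probes of ZFP symbols had medians of -0.33 and -0.26, and ZFP36, or tristetraprolin, which destabilises AU-rich mRNAs, read 2348, 1167 and 1974. The 9 ZSCAN probes had medians of -0.39 and -0.12. Those of ZSCAN5A, ZSCAN18, ZSCAN26 and ZSCAN31 entered through the vector array alone, so their selection favours a lower value on MYC. The value of -0.39 is that of ZSCAN5A. Among the ZSCAN probes above background on both arrays, ZSCAN16, ZSCAN32 and ZSCAN9 differed by -0.52, -0.31 and -0.04 for MYC against vector. ZSCAN25 and ZSCAN2 differed by 0.40 and 0.53. The 8 probes of ZC3H genes, which bind RNA through CCCH fingers, had medians of 0.16 and -0.11, and the 18 probes of ZDHHC palmitoyltransferases 0.06 and 0.05.

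KLF4, an epithelial Krüppel-like factor, read 3319 on vector, 3954 on MYC and 1173 on PI3K, so that only the PI3K array was low. KLF6 read 5478, 2974 and 2713, low on both. ZNFX1, an RNA helicase induced by interferon whose symbol has a letter after ZNF, read 2375, 593 and 1030. The antiviral CCCH protein ZC3HAV1 had 3 probes, of which the brightest read 2895, 1426 and 1450. The genes named here were picked after their values were seen.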
